A study of Mus musculus with 30 samples.

Results

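The genes described here encode 10 building blocks of basement membranes: the laminin alpha chains Lama2, Lama4 and Lama5, the beta chains Lamb1 and Lamb2, the gamma chain Lamc1, the nidogens Nid1 and Nid2, and the heparan sulfate proteoglycans perlecan (Hspg2) and agrin (Agrn). They were taken by symbol, and all 10 were present in each of the 14 tables, which together name 20093 genes. RNA near the 3' end of transcripts was sequenced from freshly isolated intestinal mesenchymal cells of C57BL/6 mice. All animals carried ColVI-cre, a Cre recombinase under collagen VI gene control, and the Rosa mTmG reporter, in which a cell that expresses Cre, or descends from such a cell, carries membrane GFP and any other cell carries membrane Tomato. The groups were GFP-positive, GFP-negative (Tomato) and unsorted cells of the colon of DSS-treated mice, the same 3 preparations of the colon of normal mice, and GFP-high, GFP-low, GFP-negative and unsorted cells from normal small intestine. DSS is dextran sulfate sodium, a compound that injures the colonic epithelium when given in drinking water and so causes colitis. Age and sex of the animals, the dose and days of DSS, and whether animals were pooled are not given in the labels. Each group had 3 libraries, except unsorted small intestine with 2, which makes 29. Nothing in the labels ties a library to an animal, so p-values measure only the spread between these libraries. The transgene marks cells by the history of its promoter, so GFP-positive cells need not be a single cell type.

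Basement membranes are thin sheets of matrix that underlie epithelia and surround vessels, muscle and nerve. Their laminin network is built from trimers of an alpha, a beta and a gamma chain, and nidogens and perlecan tie this network to collagen IV, while agrin anchors laminin to receptors such as dystroglycan and, with Lrp4, organises nerve-muscle synapses. In the intestine much of this material comes from the mesenchymal cells next to the epithelium.

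Values are normalised read counts, in which each read stands for 1 transcript whatever its length, so no correction for length was made. Totals per library were 2137947 to 4437152 normalised counts, and reads estimated from the spacing of the values were 1229000 to 4416000 in the 26 libraries where that spacing could be resolved. Normal colon, DSS colon and small intestine were each scaled separately, and levels are compared only within a scale. The 6 summed fibroblast markers (Col1a1, Col1a2, Col3a1, Pdgfra, Dcn and Lum) were higher in sorted than in unsorted libraries on each scale, without overlap. In DSS colon they reached 25964 to 79075 in sorted and 14321 to 25561 in unsorted libraries. In normal colon they reached 70732 to 107731 and 27457 to 63692, and in the small intestine 20068 to 58796 and 4767 to 6867, in the same order. The ranges that follow pool the separate scales. The 8 epithelial markers summed to 76 to 854 in sorted and 2301 to 19165 in unsorted libraries. The 8 endothelial markers summed to 34 to 1435 in sorted and 1682 to 3077 in unsorted libraries. The 8 immune markers, of which 7 were listed for DSS colon, summed to 56 to 4427 in sorted and 6220 to 48144 in unsorted libraries. In normal colon, the smooth muscle markers summed to 1090 to 1686 in sorted and 2554 to 5962 in unsorted libraries. The pericyte markers summed there to 419 to 948 in sorted and 2202 to 3225 in unsorted libraries. In DSS colon and small intestine both sums overlapped between sorted and unsorted libraries. In these bulk samples, fewer cells of a type and less RNA per cell cannot be told apart.

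Colon values of Lama5 and Nid2 followed those of a neighbouring gene on the other strand and cannot be assigned to either gene. Nid2 (chromosome 14, 19751257 to 19811787, plus strand, mm10) has a 3' end that runs into that of 2700060E02Rik. In the colon the values of these 2 genes were identical in 18 of 18 libraries, and in the small intestine in 0 of 11. Lama5 (chromosome 2, 180176373 to 180225859, minus strand), which encodes an alpha chain found under epithelia and in vessels, ends 87 bases from the end of Adrm1, a proteasome subunit gene. Across the 9 DSS and the 9 normal colon libraries the log2 levels of Lama5 and Adrm1 had Pearson correlations of 0.99 and 0.99, against 0.02 over the 11 small intestine libraries. This was general in the colon tables: pairs of genes whose 3' ends face each other across 1 to 500 bases had a median correlation of 0.99 over 334 pairs in DSS colon and 0.99 over 354 pairs in normal colon, against 0.01 over 192 pairs in the small intestine. For gaps of over 1000 and up to 3000 bases the medians were, in the same order, 0.05, 0.10 and -0.01. None of the other 8 genes had another gene of the tables, on either strand, with a 3' end within 1000 bases of its own. For Lamb2, Usp19 starts downstream on the same strand at 108490602, and their log2 levels had correlations of -0.53 over 9 DSS and -0.52 over 9 normal colon libraries and 0.21 over 11 of the small intestine. For Lama2 the annotation (GENCODE M21) has an antisense gene, Gm48084, at the 3' end, which is in none of the tables used, so its share of Lama2 counts was not tested.

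**Figure D1:**
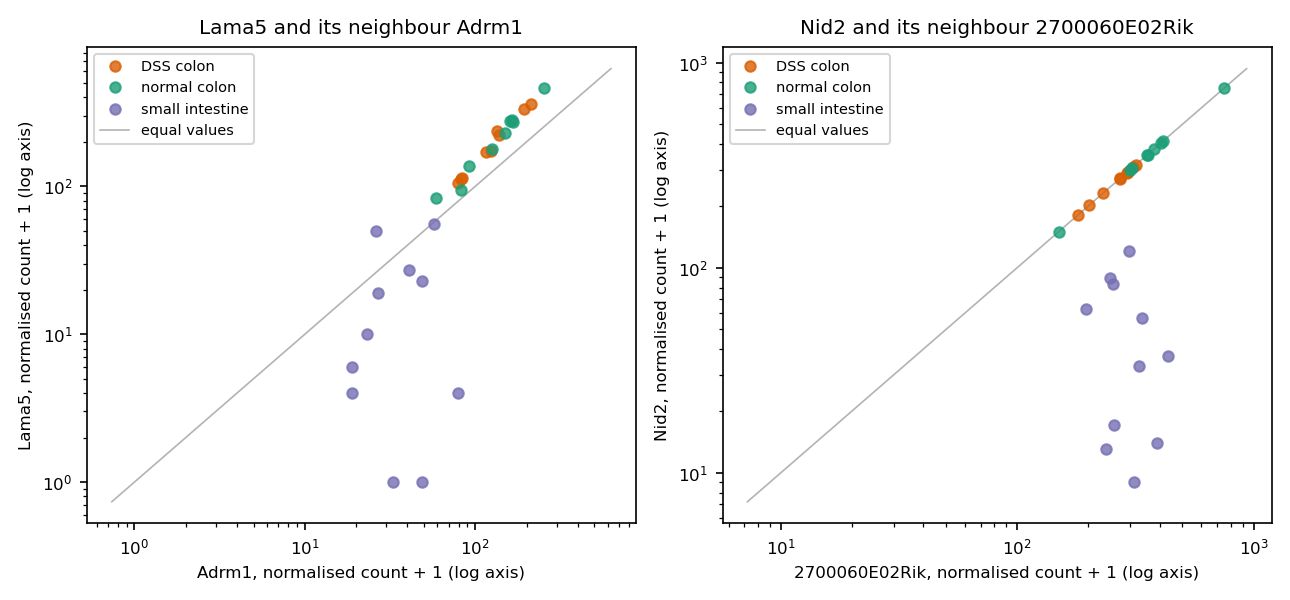
Normalised count + 1 of Lama5 against Adrm1 (left) and of Nid2 against 2700060E02Rik (right), both axes logarithmic, with a point per library. The colon points lie along a line (for Nid2 on the line of equal values), while the small intestine points, where Lama5 reached 0 to 55 and Nid2 8 to 120 normalised counts, do not.

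Lamb1 had the highest mean level of the 10 genes in every group, although Hspg2 was above it in GFP-high library 2 and GFP-negative library 2 of the small intestine. By mean level it stood at rank 12 of 17161 genes in GFP-positive DSS colon, rank 8 of 18332 in GFP-positive normal colon and rank 25 of 16563 in GFP-high small intestine, and it made up 0.533% to 0.650% of the counts of the 3 GFP-positive DSS libraries. Its partner gamma chain gene Lamc1 (chromosome 1, 153218922 to 153332786, minus strand) ranked between 316 and 3010 over the 10 groups. For each Lamc1 count there were 2.27 to 30.3 Lamb1 counts, depending on the library. The other members ranked from 83 (Hspg2 in GFP-high small intestine) to 12955 (Lama5 in GFP-low small intestine).

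**Figure D2:**
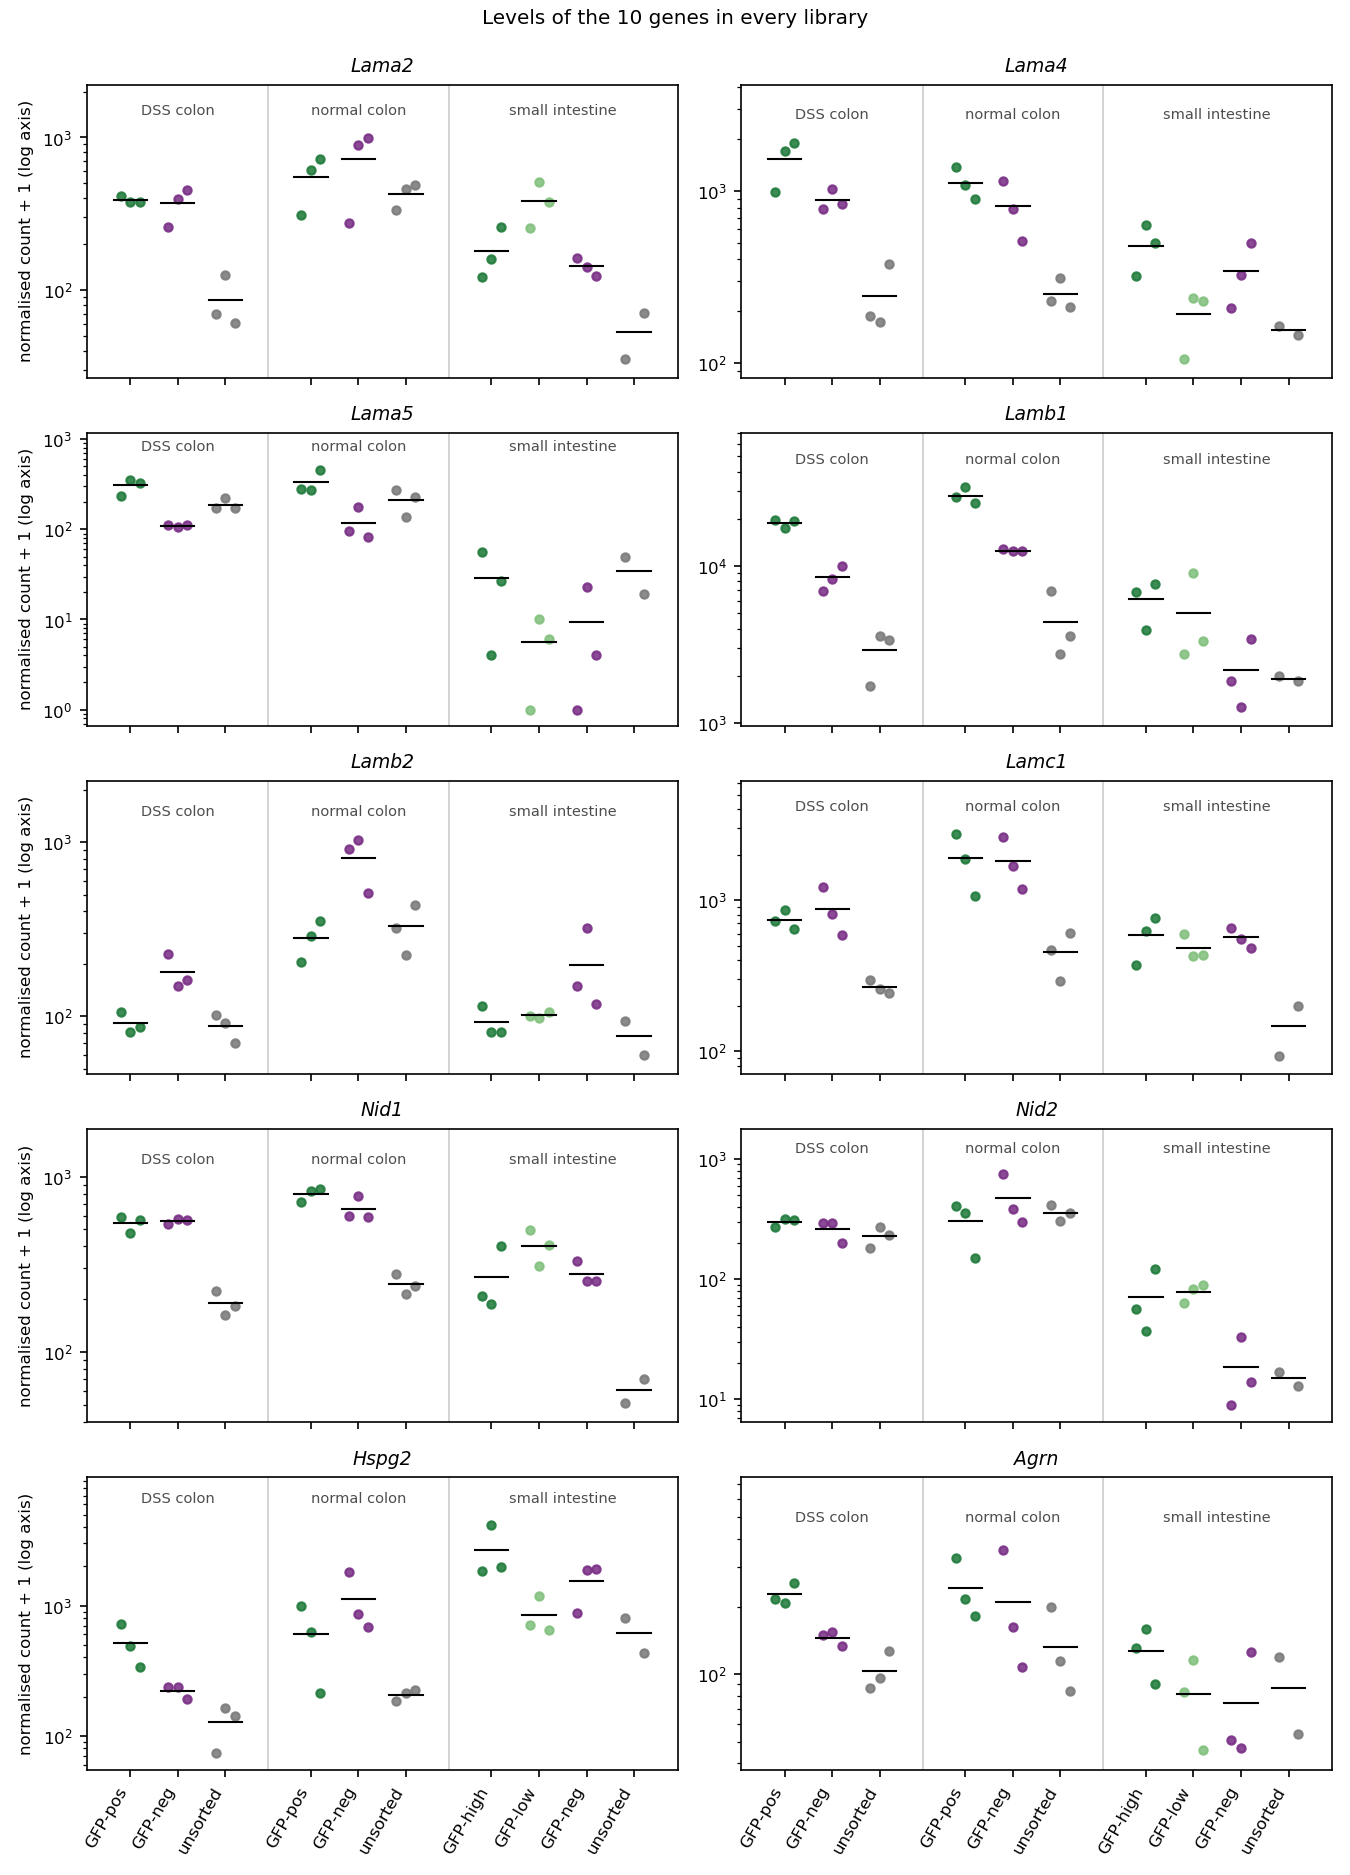
Normalised count + 1 (log axes, which differ between panels) of the 10 genes in every library; points are libraries and lines are group means. The 3 blocks (DSS colon, normal colon, small intestine) are scaled separately, and Lama5 and Nid2 in both colon blocks follow a neighbouring gene.

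The beta chains Lamb1 (chromosome 12, 31265234 to 31329644, plus strand), the widely expressed one, and Lamb2 (chromosome 9, 108479736 to 108490530, plus strand), known from muscle, synapses and kidney glomeruli, moved in opposite directions between the sorted colon populations. Their promoters are shown because limma called the 2 genes in opposite directions in both colon conditions. Whether the promoters bear on the levels was not tested. Each window runs from 250 bases before to 50 bases after the start of the gene (RefSeq, GRCm38.p6), at chr12:31265043-31265342 for Lamb1 and chr9:108479612-108479911 for Lamb2, both on the plus strand. Capitals mark the GC box GGGCGG or its reverse complement, which occurred in 35.7% of 32851 promoter windows of this length.
Lamb1: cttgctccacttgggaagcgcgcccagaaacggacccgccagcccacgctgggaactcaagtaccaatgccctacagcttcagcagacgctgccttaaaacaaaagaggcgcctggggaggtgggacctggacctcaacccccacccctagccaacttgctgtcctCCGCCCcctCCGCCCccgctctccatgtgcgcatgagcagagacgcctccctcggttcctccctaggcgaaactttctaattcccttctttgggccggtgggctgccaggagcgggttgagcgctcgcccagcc
Lamb2: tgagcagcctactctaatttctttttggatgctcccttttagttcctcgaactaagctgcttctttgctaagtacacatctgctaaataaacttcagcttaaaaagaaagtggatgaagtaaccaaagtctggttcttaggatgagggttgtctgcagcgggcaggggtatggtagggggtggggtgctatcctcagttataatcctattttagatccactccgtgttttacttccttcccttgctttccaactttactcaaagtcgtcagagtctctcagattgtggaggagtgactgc
The Lamb1 window held 2 GC boxes and 63.7% G or C bases, and the Lamb2 window 0 GC boxes and 44.0% G or C bases. Neither held TATAAA (in 13.6% of windows on either strand) or TGANTCA (in 7.81%).

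In DSS colon, Lamb1 reached 19697, 17496 and 19341 normalised counts in the GFP-positive libraries, against 6967, 8338 and 10089 in the GFP-negative ones. All GFP-positive libraries were above all GFP-negative ones, and Lamb1 rose by 1.17 on the log2 scale (SE 0.20, n = 3 each, limma adjusted p = 0.00083). Lamb2 had 105, 80 and 86 counts in GFP-positive against 226, 149 and 160 in GFP-negative libraries, again without overlap, and fell by 0.96 (SE 0.21, limma adjusted p = 0.0055). In normal colon Lamb1 had 27634, 31733 and 25146 counts in GFP-positive against 12798, 12446 and 12466 in GFP-negative libraries, a rise of 1.16 (SE 0.30, limma adjusted p = 0.045). Lamb2 had 203, 290 and 350 in GFP-positive against 907, 1024 and 507 in GFP-negative libraries there, without overlap, and fell by 1.50 (SE 0.33, limma adjusted p = 0.021). The DSS calls of both genes held without any single library. In normal colon each call was lost without some of the libraries, for Lamb1 without GFP-positive library 1 (adjusted p = 0.13), 2 (0.13) or 3 (0.12) or GFP-negative library 2 (0.16) or 3 (0.097) and in a joint fit with unsorted cells (0.13), and for Lamb2 without GFP-positive library 1 (0.096) or 2 (0.066) or GFP-negative library 2 (0.10). The sign was kept in each case.

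The share of Lamb2 in the sum of both beta chains does not depend on how libraries are scaled. It was 0.476% ± 0.047 in GFP-positive and 2.15% ± 0.86 in GFP-negative cells of DSS colon (SD, n = 3 each), and 1.0% ± 0.33 in GFP-positive and 6.04% ± 1.91 in GFP-negative cells of normal colon. No library of either GFP-positive group reached the lowest GFP-negative one of its condition. The log2 ratio of Lamb2 to Lamb1 was lower in GFP-positive than in GFP-negative cells over both conditions (difference -2.40, exact stratified permutation test, two-sided, p = 0.005, the smallest that 400 permutations allow, 0.0067 after adjustment over 4 ratio tests). This ratio was formed with the direction of both genes already known, so its p adds no independent evidence. Between conditions the ratio was lower in DSS than in normal cells, with a difference of -1.30 over both sorted populations (same exact permutation test, p = 0.005, again the smallest possible, adjusted 0.0067). The test reuses the counts of the DSS comparisons of Lamb1 and Lamb2 given below. It was chosen with earlier results known, so its p adds no independent evidence either. In unsorted cells, which were not in that test, the share was 5.53%, 2.46% and 2.00% in DSS and 4.40%, 7.55% and 10.9% in normal colon, so the groups overlapped. In the small intestine the share was 1.56% ± 0.50 in GFP-high, 2.53% ± 1.29 in GFP-low and 10.3% ± 8.9 in GFP-negative cells (n = 3 each). GFP-negative library 2 held 20.4%, and libraries 1 and 3 held 7.38% and 3.29%.

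**Figure D3:**
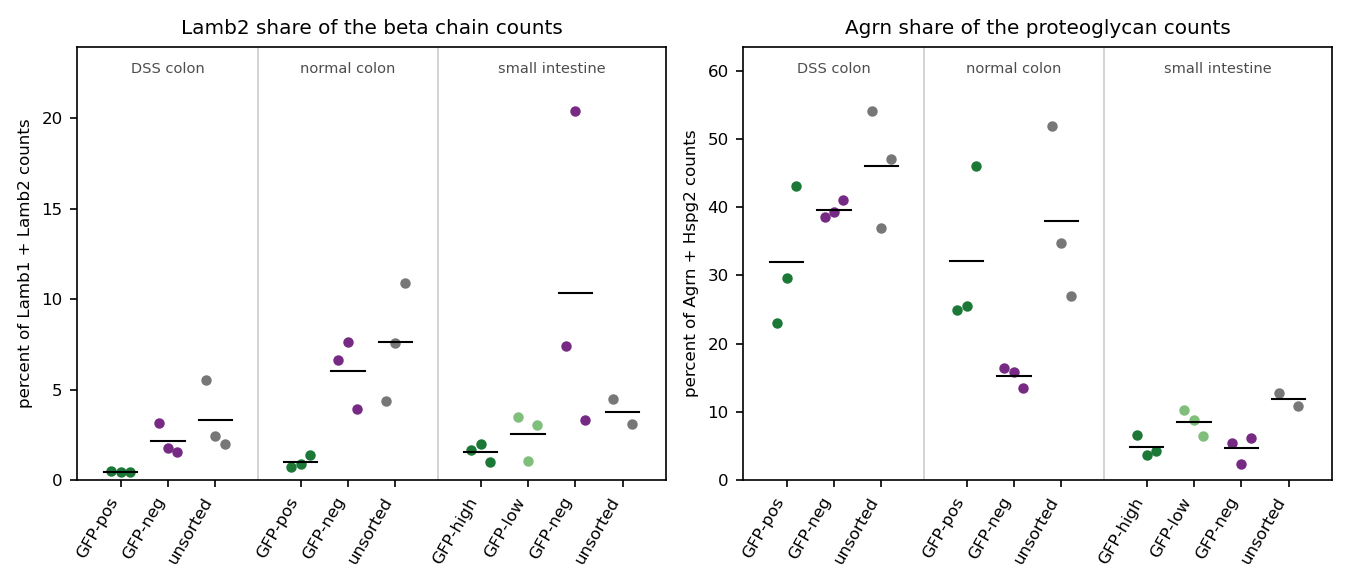
Left, Lamb2 as a percentage of Lamb1 + Lamb2 counts, and right, Agrn as a percentage of Agrn + Hspg2 counts, in every library (points) with group means (lines). Every GFP-positive colon library lies at or below 1.37% Lamb2, and GFP-negative cells hold 38.5% to 41.1% Agrn in DSS colon and 13.5% to 16.5% in normal colon.

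In DSS colon 6 of the 10 genes differed between GFP-positive and GFP-negative cells, 5 higher and 1 lower, where 17.1% of 12570 genes tested were called, 8.22% higher and 8.9% lower. The median log2 difference of the 10 genes was 0.43, against 0.01 over all genes. Without Lama5 this leaves 5 genes that can be assigned. Besides the beta chains these were Lama4, Hspg2 and Agrn. Lama4 (chromosome 10, 38965515 to 39110188, plus strand), the alpha chain of vessel walls and mesenchyme, had 986, 1697 and 1887 counts in GFP-positive against 789, 1028 and 841 in GFP-negative libraries. The groups overlapped at GFP-positive library 1, and the rise of 0.74 (SE 0.23, limma adjusted p = 0.040) was lost without GFP-positive library 2 (adjusted p = 0.16) or 3 (0.17) or GFP-negative library 1 (0.099) or 3 (0.084), and in a joint fit with unsorted cells (0.14). Hspg2 (chromosome 4, 137468769 to 137570630, plus strand) had 722, 491 and 336 counts in GFP-positive against 236, 237 and 189 in GFP-negative libraries, without overlap. It rose by 1.16 (SE 0.24, limma adjusted p = 0.0034), also without any single library. Agrn (chromosome 4, 156165290 to 156197488, minus strand) had 216, 207 and 254 counts in GFP-positive against 148, 153 and 132 in GFP-negative libraries, without overlap, and rose by 0.64 (SE 0.18, limma adjusted p = 0.023). That call was lost without GFP-positive library 1 (adjusted p = 0.065) or 3 (0.10) or GFP-negative library 3 (0.070), and in a joint fit with unsorted cells (0.056). Lama2, Lamc1 and Nid1 had log2 differences of 0.12, -0.18 and -0.04 that did not pass, with 95% intervals from -0.32 to 0.56, -0.68 to 0.32 and -0.40 to 0.32.

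In normal colon 3 of the 10 genes were called between GFP-positive and GFP-negative cells, against 5.98% of 13346 genes tested (2.97% higher and 3.01% lower): Lamb1 and Lama5 were higher and Lamb2 was lower. The median over the 10 genes was 0.16, against 0.00 over all genes. Lama4 had 1378, 1074 and 896 counts in GFP-positive against 1146, 779 and 509 in GFP-negative libraries, and Hspg2 had 988, 625 and 212 in GFP-positive against 1810, 857 and 686 in GFP-negative libraries. Both overlapped, and their log2 differences of 0.51 (95% interval -0.21 to 1.24) and -1.01 (-2.17 to 0.16) did not pass. In both populations library 1 held the highest level of Lama4, Lamc1, Nid2, Hspg2 and Agrn and the lowest of Lama2 among the 3 libraries. Lama2 (chromosome 10, 26980036 to 27619758, minus strand), the alpha chain of muscle and nerve sheaths, had 307, 609 and 726 counts in GFP-positive against 274, 886 and 990 in GFP-negative libraries.

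Lama5 itself had 235, 357 and 331 counts in GFP-positive against 111, 105 and 112 in GFP-negative libraries of DSS colon, and 282, 276 and 459 in GFP-positive against 94, 178 and 82 in GFP-negative libraries of normal colon. The counts of Adrm1 in the same libraries were 134, 210 and 191 in GFP-positive against 82, 78 and 83 in GFP-negative cells of DSS colon, and 163, 158 and 252 in GFP-positive against 82, 125 and 58 in GFP-negative cells of normal colon. The differences listed under Lama5 were 1.46 (SE 0.19, limma adjusted p = 9.0e-05) and 1.56 (SE 0.34, limma adjusted p = 0.021), and the ratio of Lama5 to Lama2 + Lama4 differed by 1.16 over both conditions (exact stratified permutation test, p = 0.005, the smallest possible, adjusted 0.0067). This ratio reuses the same Lama5 counts and was chosen with earlier results known, so its p adds no independent evidence. Which of the neighbouring genes these differences belong to cannot be told apart. The normal colon call was lost without GFP-positive library 1 (adjusted p = 0.050), 2 (0.052) or 3 (0.093) or GFP-negative library 3 (0.075). In the small intestine, where the neighbours differ, Lama5 had 55, 3 and 26 counts in GFP-high, 0, 9 and 5 in GFP-low and 0, 22 and 3 in GFP-negative cells, and 49 and 18 in unsorted cells.

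Some cell type markers differed between GFP-positive and GFP-negative colon cells in both conditions. In DSS colon all 6 pericyte markers (Rgs5, Abcc9, Kcnj8, Cspg4, Notch3 and Higd1b) were higher in GFP-positive than in GFP-negative cells, with a median of 1.18 and sums of 1640 to 2030 against 765 to 1309 counts. In normal colon 1 of 6, Kcnj8, was higher, with sums of 631 to 878 in GFP-positive against 419 to 948 in GFP-negative cells. Also in normal colon, of 6 fibroblast markers Pdgfra was higher and Dcn and Lum lower in GFP-positive cells. Of 6 smooth muscle markers Synpo2 was higher, with a median of -0.12 over the list. Tek was lower among 6 endothelial markers tested, and the plasma cell genes Mzb1 and Jchain among 5 immune markers tested. Of the epithelial (8), lymphatic (2) and glia and neuron markers (2) tested there, 0 passed. Endothelial markers summed to 94 to 181 in GFP-positive and 184 to 280 in GFP-negative cells of DSS colon, with Tek, Egfl7 and Kdr lower among 4 tested. Of the fibroblast markers 5 of 6 were lower and Pdgfra higher there. Epithelial (Cdh1, Krt19 and Epcam, 3 of 8), immune (Mzb1 and Jchain, 2 of 5 tested), glia and neuron (Elavl4 and Uchl1, 2 of 3 tested) and lymphatic markers (Flt4, 1 of 2 tested) were lower too, and of 6 smooth muscle markers Synpo2 was higher and Cnn1 lower. The part of these markers in the results for the beta chains, Lama4, Hspg2 and Agrn was not tested.

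**Figure D4:**
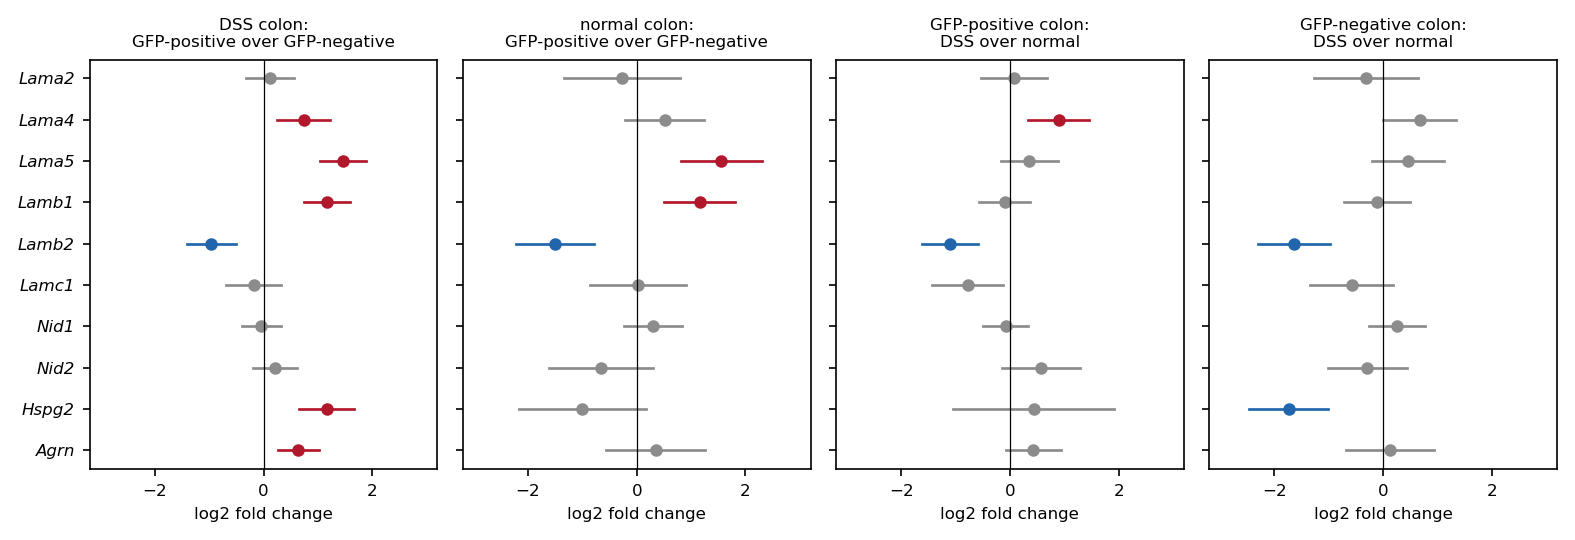
Log2 fold changes (points) of the 10 genes with 95% intervals (bars) from limma in 4 comparisons of sorted colon cells; red is higher and blue lower at an adjusted p under 0.05, and grey did not pass. Lamb2 is blue in all 4 panels and Hspg2 is red in DSS colon and blue for DSS over normal GFP-negative cells, while Lama5 and Nid2 follow a neighbouring gene.

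DSS treatment went with less Lamb2 in both sorted populations. These comparisons use the scale that the sorted DSS and normal colon libraries share, and DSS and normal libraries carry separate runs of library numbers in the labels, so treatment and library run cannot be told apart. In GFP-positive cells Lamb2 had 123, 94 and 100 counts with DSS against 168, 236 and 293 without, and fell by 1.10 (SE 0.24, limma adjusted p = 0.0068). In GFP-negative cells it had 266, 175 and 188 counts with DSS against 758, 855 and 413 without, and fell by 1.64 (SE 0.31, limma adjusted p = 0.0069). Neither pair of groups overlapped. The GFP-positive call held without any single library, and the GFP-negative one was lost only without DSS library 2 (log2 difference -1.52, adjusted p = 0.056). Lamb1 did not pass in either population, with differences of -0.09 (95% interval -0.56 to 0.37) and -0.11 (-0.72 to 0.50).

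Of the 10 genes, 2 were called with DSS in GFP-positive cells, where 19.7% of 12976 genes were (10.2% higher and 9.46% lower), and 2 in GFP-negative cells, where 10.3% of 13025 were (6.03% higher and 4.27% lower). The medians over the 10 genes were 0.22 and -0.20, against -0.01 and -0.02 over all genes. In GFP-positive cells the second was Lama4, with 1153, 1994 and 2209 counts with DSS against 1152, 901 and 754 without. The groups did not overlap, by 1 count, and the rise of 0.90 (SE 0.26, limma adjusted p = 0.029) was lost without DSS library 2 (0.13) or 3 (0.14) or normal library 3 (0.079), and in a joint fit of all groups of the scale (0.054). Lamc1 did not pass there (log2 difference -0.78, adjusted p = 0.090), and passed without normal library 3 (-1.14, adjusted p = 0.0050). The markers Rgs5, Kcnj8 and Abcc9, 3 of the 6 for pericytes, were also higher with DSS in GFP-positive cells. Of the 6 fibroblast markers Col1a1, Col1a2, Col3a1 and Lum were lower (median of the list -0.99), and Tek was the 1 of 6 endothelial markers tested that was lower. The part of these markers in the results for Lamb2 and Lama4 was not tested.

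In GFP-negative cells the second was Hspg2. Its window at chr4:137468553-137468852 (plus strand, RefSeq, GRCm38.p6) is shown because Hspg2 had the largest DSS fold change of the 10 genes there, with 5 GC boxes in capitals and 70.3% G or C bases.
Hspg2: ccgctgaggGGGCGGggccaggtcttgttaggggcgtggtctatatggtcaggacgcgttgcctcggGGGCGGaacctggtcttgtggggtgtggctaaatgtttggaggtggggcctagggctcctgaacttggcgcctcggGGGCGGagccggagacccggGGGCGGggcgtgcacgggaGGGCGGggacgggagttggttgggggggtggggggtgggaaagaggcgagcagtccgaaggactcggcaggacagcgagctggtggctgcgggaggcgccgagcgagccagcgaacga
Hspg2 had 277, 279 and 222 counts with DSS against 1523, 724 and 578 without, and fell by 1.74 (SE 0.33, limma adjusted p = 0.0081). The groups did not overlap, and the call held without any single library. Agrn, the other proteoglycan, differed by 0.13 (95% interval -0.67 to 0.94) and did not pass. Agrn was 39.6% ± 1.3 of the Agrn and Hspg2 counts in DSS and 15.3% ± 1.6 in normal GFP-negative cells (SD, n = 3 each), against 31.9% ± 10.2 and 32.2% ± 12.0 in DSS and normal GFP-positive cells. Without normal library 1, Lama2 (-0.91, adjusted p = 0.035) and Lama4 (0.96, adjusted p = 0.022) also passed in GFP-negative cells, although over all libraries they were at -0.32 (adjusted p = 0.68) and 0.68 (adjusted p = 0.18). Of the 6 pericyte markers Kcnj8 and Abcc9 were higher and Cspg4 lower with DSS in GFP-negative cells, and of the 6 fibroblast and 6 endothelial markers tested 0 passed in limma. The part of any of these in the results was not tested.

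The difference between the DSS responses of GFP-positive and GFP-negative cells passed for 0 of the 10 genes in the limma interaction test, where 0.0519% of 13488 genes passed. At an unadjusted p under 0.05, which 8.01% of all genes reached, there was 1, Hspg2, whose response was 2.17 higher in GFP-positive cells (SE 0.69, 95% interval 0.68 to 3.66, adjusted p = 0.48). Hspg2 had 845, 577 and 394 counts in DSS and 826, 524 and 178 in normal GFP-positive cells. For Lamb2 the difference of the responses was 0.54 (95% interval -0.31 to 1.39).

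In the small intestine 0 of the 10 genes were called between sorted populations by limma (Lama5 was too low to be tested for GFP-low over GFP-negative cells), with 0.894% of 12412 genes called for GFP-high over GFP-negative, 0.675% of 12445 for GFP-low over GFP-negative and 0.384% of 12226 for GFP-high over GFP-low. At an unadjusted p under 0.05 there were 3 genes in each of these comparisons, which share libraries, where 10.6%, 16.9% and 7.7% of all genes were. The directions of the beta chains are given for comparison with the colon. Lamb1 had 6833, 3898 and 7711 counts in GFP-high, 2767, 9046 and 3333 in GFP-low and 1857, 1256 and 3436 in GFP-negative cells. GFP-high did not overlap GFP-negative cells (log2 difference 1.56, SE 0.41, limma adjusted p = 0.12), and GFP-low did. Lamb2 had 114, 80 and 80 counts in GFP-high, 100, 97 and 105 in GFP-low and 148, 321 and 117 in GFP-negative cells, lower in both GFP groups without overlap (-0.97 and -0.81, adjusted p = 0.44 and 0.32). GFP-negative library 2, the highest for Lamb2, also had the highest summed epithelial (854) and glia and neuron markers (390) of the sorted small intestine libraries. The highest endothelial (1435) and lymphatic sums (626) were in GFP-negative library 1, with 148 counts of Lamb2. The part of these markers in the Lamb2 levels was not tested.

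No alpha chain gene passed between sorted populations of the small intestine. Lama2 had 121, 159 and 259 counts in GFP-high, 254, 506 and 378 in GFP-low and 162, 141 and 122 in GFP-negative cells, and Lama4 had 318, 629 and 495 in GFP-high, 105, 238 and 230 in GFP-low and 208, 325 and 499 in GFP-negative cells. Lama2 made up 66.5% ± 4.6 of the 3 alpha chains in GFP-low cells, 25.9% ± 6.7 in GFP-high and 30.7% ± 12.2 in GFP-negative cells (SD, n = 3 each), and on this share, which was not tested, no GFP-low library overlapped the others. By level, Lama2 overlapped between GFP-high and GFP-low cells and Lama4 between GFP-low and GFP-negative cells. By gene, the limma adjusted p was 0.086 for Lama2 in GFP-low over GFP-negative cells (1.37, SE 0.33) and 0.28 for Lama4 in GFP-high over GFP-low cells (1.36, SE 0.38). Hspg2 had 1832, 4174 and 1986 counts in GFP-high, 713, 1181 and 645 in GFP-low and 871, 1883 and 1903 in GFP-negative cells. It was higher in GFP-high than in GFP-low cells without overlap (1.60, SE 0.38, adjusted p = 0.14). The smooth muscle markers Cnn1 and Myh11 and the pericyte markers Kcnj8 and Abcc9 were higher in GFP-high than in GFP-low cells too. The 6 smooth muscle markers summed to 745 to 1178 counts in GFP-high against 264 to 429 in GFP-low cells and the 6 pericyte markers to 3143 to 5406 in GFP-high against 5428 to 7936 in GFP-low cells, and their part was not tested.

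The nidogens link laminin to collagen IV, and only in the small intestine can Nid2 be read as such. Nid2 had 56, 36 and 120 counts in GFP-high, 62, 82 and 88 in GFP-low and 8, 32 and 13 in GFP-negative cells. Both GFP groups lay above GFP-negative cells without overlap, at low counts (log2 differences 1.98, SE 0.67, adjusted p = 0.27, and 2.27, SE 0.59, adjusted p = 0.10). Nid1 (chromosome 13, 13437602 to 13512275, plus strand) had 208, 187 and 403 counts in GFP-high, 497, 307 and 405 in GFP-low and 330, 253 and 252 in GFP-negative cells, which overlapped. In the colon Nid1 did not pass between sorted populations (log2 differences -0.04 in DSS and 0.30 in normal colon), with 589, 479 and 562 counts in GFP-positive and 533, 572 and 565 in GFP-negative cells of DSS colon, and 715, 830 and 854 in GFP-positive against 596, 774 and 586 in GFP-negative cells of normal colon. The ratio listed as Nid2 to Nid1 did not differ detectably with DSS (0.05, exact stratified permutation test, p = 0.835).

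Between 2 and 8 of the 10 genes were higher in sorted than in unsorted cells, whose cell type markers are given above. In DSS colon 8 of the 10 genes were called in GFP-positive over unsorted cells, all higher, where 37.1% of 13662 genes were called (15.8% higher). In GFP-negative over unsorted cells 8 were called, 7 of them higher, where 33% were called (13.7% higher). Both of these counts include Lama5, called higher in GFP-positive and lower in GFP-negative cells. Its colon counts cannot be told from those of Adrm1. In normal colon 4 were higher in GFP-positive cells (21.8% of 14649 genes called, 7.72% higher) and 6 in GFP-negative cells (18.8% of 14617, 5.81% higher), or 2 without GFP-negative library 2. In the small intestine, on 2 unsorted libraries, 7 were higher in GFP-high (17.2% of 13369 genes called, 6.13% higher), 4 in GFP-low (22.8% of 13434, 9.13% higher) and 2 in GFP-negative cells (11.5% of 13374, 4.58% higher). These calls depend on both unsorted libraries. Leaving out either leaves 1, which has no spread of its own, so calls of those fits are not given. With both kept, the count fell to 2 in GFP-high cells without GFP-high library 3. It fell to 1 in GFP-negative cells without GFP-negative library 1. The 3 comparisons of the small intestine share the unsorted libraries, and so do the 2 of each colon condition. Nid1 was called in all 7 of these comparisons and Lamc1 in all 7. Lamb1 had 1727, 3604 and 3384 counts in unsorted DSS colon and 6982, 2743 and 3577 in unsorted normal colon, below all 6 sorted libraries of the same condition. Agrn was called in 1 of the 7, GFP-positive DSS colon (1.15, SE 0.22, limma adjusted p = 0.0014).

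In the authors' deposited tables, which hold an FDR from DESeq, 0 of the 10 genes had an FDR under 0.05 in the 7 comparisons between sorted populations. Of all genes 0.133% (GFP-high over GFP-low) to 1.93% (DSS colon GFP-positive over GFP-negative) passed there, so 0 of 10 is near that share. The lowest FDR of a member in the authors' deposited table was 0.264 for DSS colon GFP-positive over GFP-negative cells, where 308 of 15964 genes (1.93%) passed, and 0.848 for normal colon, where 94 of 16688 did. For DSS over normal, 45 of 16653 genes passed in GFP-positive cells and 76 of 16386 in GFP-negative cells. The lowest member FDR for DSS over normal in GFP-negative cells was 0.919. Calls of the beta chains, Lama4, Hspg2 and Agrn therefore rest on the limma test alone. Against unsorted cells the authors' deposited tables had an FDR under 0.05 for 11 gene and comparison pairs, such as Lama4 in GFP-positive over unsorted DSS colon (FDR 0.000199, log2 fold change 2.63). In DSS colon these were 4 of the 10 genes in GFP-positive cells (10.8% of all genes passed) and 3 in GFP-negative cells (9.69%). In normal colon there was 1 in GFP-positive (6.73%) and 1 in GFP-negative cells (6.74%). The small intestine had 0 in GFP-high (5.27%), 2 in GFP-low (6.32%) and 0 in GFP-negative cells (3.56%).

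Among 27 other basement membrane genes, the collagen IV chains Col4a5 and Col4a6 and the calcium-binding matrix protein Smoc1 were higher in GFP-positive colon cells, as Lamb1 was, and the fibulins Fbln1 and Fbln2 and netrin 4 were lower, as Lamb2 was. In DSS colon 19 of the 27 were tested: 4 were higher in GFP-positive cells (Pxdn, Smoc1, Col4a5 and Col4a6) and 9 lower (Fbln1, Fbln2, Sparc, Ntn1, Ntn4, Smoc2, Col15a1, Col4a2 and Frem1). The median log2 difference of the 19 was -0.94 against 0.01 over all genes, of which 8.22% were called higher and 8.9% lower. In normal colon 20 of the 27 were tested: 3 were higher (Smoc1, Col4a5 and Col4a6) and 4 lower (Fbln1, Fbln2, Ntn4 and Col15a1). The median of the 20 was -0.17 against 0.00 over all genes, of which 2.97% were called higher and 3.01% lower. Col4a5 averaged 253 counts in GFP-positive and 29.3 in GFP-negative cells of DSS colon (3.14, limma adjusted p = 1.0e-06), and 588 in GFP-positive and 86.7 in GFP-negative cells of normal colon (2.77, limma adjusted p = 0.00048). Ntn4, a netrin that disrupts laminin networks, averaged 24.0 counts in GFP-positive and 128 in GFP-negative cells of DSS colon (-2.36, limma adjusted p = 6.2e-06), and 72.0 in GFP-positive and 328 in GFP-negative cells of normal colon (-2.06, limma adjusted p = 0.014). The common collagen IV chain genes Col4a1 and Col4a2 did not pass in normal colon (0.26 and 0.30).

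**Figure D5:**
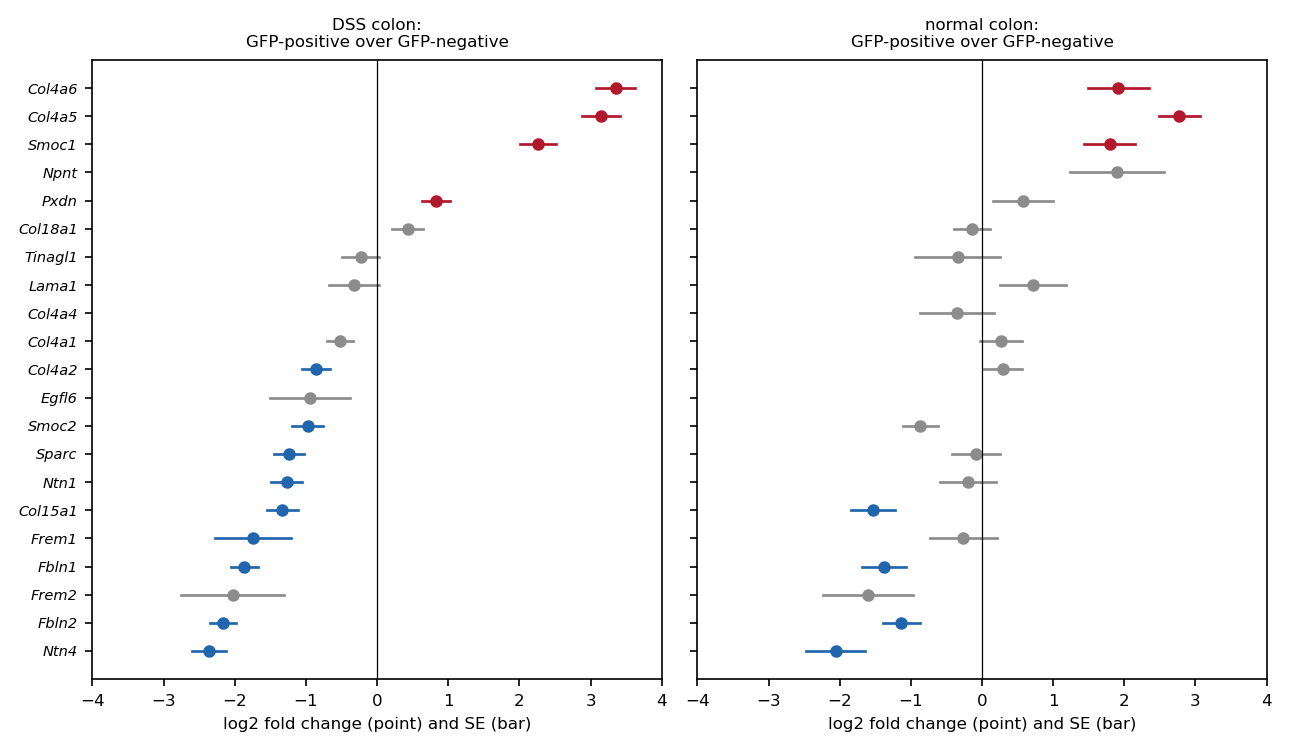
Log2 fold changes (points) with standard errors (bars) of the other basement membrane genes tested, GFP-positive over GFP-negative cells, in DSS colon (left, 19 genes) and normal colon (right, 20 genes); red is higher and blue lower at a limma adjusted p under 0.05. Col4a5, Col4a6 and Smoc1 are higher and Fbln1, Fbln2, Ntn4 and Col15a1 lower in both.

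With DSS, 2 of 19 of these genes tested were higher in GFP-positive cells (Col18a1 and Smoc1) and 6 lower (Fbln1, Fbln2, Ntn1, Ntn4, Col15a1 and Col4a5). Their median was -0.50 against -0.01 over all genes, of which 10.2% were called higher and 9.46% lower. In GFP-negative cells 3 of the 19 tested were higher (Col18a1, Smoc2 and Lama1) and 2 lower (Col15a1 and Col4a6). Their median was 0.59 against -0.02 over all genes, of which 6.03% were called higher and 4.27% lower. Col18a1, the source of endostatin, averaged 2954 counts with DSS and 527 without in GFP-positive cells (2.46, limma adjusted p = 1.6e-05) and 2190 with DSS and 586 without in GFP-negative cells (1.89, limma adjusted p = 0.0013). In the small intestine Fbln1 was lower in GFP-high than in GFP-negative cells, Smoc2 lower in GFP-low than in GFP-negative cells, and Smoc2 and Col4a5 higher in GFP-high than in GFP-low cells, out of 21 or 22 tested. Over all genes 0.894%, 0.675% and 0.384% were called in these 3 comparisons.

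Of 20 receptor genes 16 were tested in the colon. Between sorted populations 3 were higher and 0 lower in GFP-positive cells of DSS colon (8.22% and 8.9% of all genes). In normal colon 2 were higher and 0 lower (2.97% and 3.01% of all genes). With DSS, 2 were higher and 2 lower in GFP-positive cells (10.2% and 9.46% of all genes). In GFP-negative cells 3 were higher and 2 lower with DSS (6.03% and 4.27% of all genes). Lrp4, the agrin receptor, averaged 379 counts in GFP-positive and 112 in GFP-negative cells of DSS colon (1.75, limma adjusted p = 5.9e-06), 423 in GFP-positive and 84.0 in GFP-negative cells of normal colon (2.30, limma adjusted p = 0.00081) and, among 18 tested in the small intestine, 335 in GFP-high and 57.7 in GFP-negative cells (2.56, limma adjusted p = 0.014). Itga1, an integrin chain for collagens and laminins, was higher in GFP-positive cells in both colon conditions (0.82 and 1.33, limma adjusted p = 0.044 and 0.035). Gpc1 was called higher in DSS colon but lists the same counts as its neighbour Ankmy1 in 6 of 9 libraries. With DSS the syndecans Sdc1 and Sdc4 rose in both GFP-positive cells (2.38 and 1.21) and GFP-negative cells (2.23 and 1.21), and the integrin chain Itgb5 fell in both (-0.84 and -1.17). In GFP-negative cells Lrp4 also rose (0.90, limma adjusted p = 0.043) and the syndecan Sdc2 fell (-1.22, limma adjusted p = 0.018). Dag1, the dystroglycan gene, fell in GFP-positive cells (-1.01, limma adjusted p = 0.012).

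Over the 29 libraries, each set against the mean of its scale, the genes most like each member in log2 level among 12404 were, by Pearson's r, Ptch1 (0.94) and P3h1 (0.92) for Lamb1, Cilp (0.83) and Cd34 (0.83) for Lamb2, and Itgb5 (0.92) and Rarres2 (0.92) for Lamc1. They were Ccdc8 (0.94) and Gpc1 (0.91, with the neighbour named above) for Lama4, Mxra8 (0.89) and Gli2 (0.87) for Lama2, C1s1 (0.94) and Pcdh7 (0.93) for Nid1, 9530068E07Rik (0.86) and Flnc (0.85) for Hspg2, and Inpp5a (0.84) and Dync1h1 (0.83) for Agrn. Within the family the highest correlation was 0.86, between Lamc1 and Nid1, and Lamb1 and Lamb2 were at -0.10. These values carry the difference between sorted and unsorted cells that the libraries share. For Lama5 and Nid2 no such genes are given, because of their neighbours in the colon.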

How the data were processed

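RNA was measured by QuantSeq 3' sequencing on an Ion Proton, per the labels' protocols. Per the submitters' processing notes, TopHat2, Bowtie2 and DESeq were used with mm10; no source used here gives versions, the counting program, its use of strand or the annotation. Per the file headers, the authors deposited normalised counts (a score, rounded to whole numbers), a p-value and FDR from DESeq, and log2 fold changes. Each library's values were identical in all tables of a scale (0 of 619810 comparisons differed). Columns of other samples numbered 0.

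Each of 14 pairs of groups was tested with limma 3.58.1 (R 4.3.3, mean-variance trend, robust) on log2(value + 1), which understates changes of low genes, over genes whose mean reached 10 in either group, with Benjamini-Hochberg adjustment and a threshold of 0.05. The DSS response difference used the 12 sorted colon libraries on their common scale, whose mean ratios to the separate scales were 1.17 to 1.18 for DSS and 0.836 to 0.844 for normal libraries; from these ratios both tables were taken to share a scale. Fits were tested on simulated data. Ratios of genes were tested by exact stratified permutation (Python 3.11.15). No label says that replicate numbers pair libraries, and the main fits used no block. All 10 genes were named, with list members past the threshold and the 2 most alike genes per member except Lama5 and Nid2. Members, lists and ratios were chosen with earlier results of these data known. Alternatives were another pseudocount (8), no filter, equal totals, a replicate block, a joint fit, leaving out each library, and, chosen after seeing the data, counts without Lama5 and Nid2. Replicate 1 of unsorted small intestine was not analysed here. Promoter windows are from RefSeq, which matched 7 of the 10 genes. A gene of the list of other basement membrane genes is not reported here.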

Additional observations from a re-analysis of the deposited data

How the results depend on the processing

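No direction of a called gene reversed under any alternative run. The count of called members, 3 in normal colon for GFP-positive over GFP-negative cells, was 0 to 3 when each library was left out in turn. For DSS over normal it was 2 in GFP-positive cells, 1 with the replicate block (Lama4 lost, adjusted p = 0.054), 1 in the joint fit and 1 to 2 without each library; in GFP-negative cells it was 2, and 1 to 4 without each library. For GFP-high over GFP-low it was 0, and 2 with the replicate block (Lama4 and Hspg2, adjusted p = 0.045 and 0.010). Against unsorted cells, leaving out each library gave 2 to 5 of 6 in GFP-negative normal colon, and 0 to 7 of 7, 0 to 4 of 4 and 0 to 2 of 2 in GFP-high, GFP-low and GFP-negative small intestine, where GFP-negative cells gave 1 with the block; with 1 unsorted library left, it is assumed to vary like the other groups. Counts without Lama5 and Nid2, an alternative chosen after seeing the data, stayed within 1.5 times. Within single strata the exact tests cannot go below 0.100: the Lamb2 to Lamb1 ratio differed by -2.14 in DSS and -2.66 in normal colon between populations, and by -1.04 in GFP-positive and -1.56 in GFP-negative cells with DSS, and the Lama5 ratio by 0.88 in DSS and 1.44 in normal colon. The ratio listed as Nid2 to Nid1 was -0.55 in GFP-negative cells alone and -0.20 to 0.28 without each library. The replicate numbers are not known to pair libraries (same-number correlations -0.33 to 0.39, in no comparison of 3 pairs all over 0.1), and the block changed no other count by over 1.5 times. Equal totals moved the median of all genes in the DSS over normal comparisons to -0.13 in GFP-positive and -0.14 in GFP-negative cells. Low counts limit Lama5 and Nid2 in the small intestine.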
